A study of Mus musculus with 4 samples.

Results

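Cycling epithelial cells of the mouse mammary gland were described here as a set of 324 cell barcodes among 13198 epithelial barcodes and 19382 barcodes deposited in all. A barcode was a member when it had at least 3000 gene UMIs (unique molecule counts), at most 15% mitochondrial UMIs and at least 3 UMIs of Mki67 and Top2a together. Per 10000 UMIs it also had to hold at least 10 of Krt8, Krt18, Krt5 and Krt14, fewer than 10 of Col1a1, Col1a2 and Col3a1, and fewer than 5 of C1qa, C1qb and Tyrobp. The members were thus chosen by the measured UMIs of these genes, whose own levels are not results. The cells came from organoids grown from fat pads, freed of lymph nodes, of virgin mice aged 8 to 9 weeks. The labels gave neither strain nor genotype. Organoids were cultured on collagen (COL1), a stiff matrix (STIFF), Matrigel (MATR) or a soft matrix (SOFT), then dissociated and marked with hashtag antibodies. COL1 and STIFF cells shared 1 droplet channel, and MATR and SOFT cells shared the other. Each culture was grown once, so there was no replicate and no test was possible. Pool and channel cannot be told apart, so cultures of different pools differ by channel too. Cultures of the same pool shared a channel, but each was a single culture.

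A dividing cell copies its genome in S phase and separates the copies in mitosis. Origins are licensed by the MCM helicase, copied by polymerases at the fork, and the copies are condensed, attached to spindle microtubules at the kinetochore and released when the anaphase promoting complex marks cyclin B and securin for destruction. Cyclin-dependent kinases drive each step, and CDK inhibitors hold them back. In the mammary gland the epithelium consists of contractile basal cells and of luminal cells, of which some carry estrogen and progesterone receptors (HR-positive) and others, the milk-producing precursors, do not (HR-negative). In the adult gland HR-positive cells are known to divide seldom and to signal to their neighbours.

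The COL1 and STIFF library gave 201 members of 6463 epithelial barcodes, and the MATR and SOFT library gave 123 of 6735. Members were deep barcodes, with a median of 26385 and 28205 gene UMIs in these libraries, against 11300 and 12528.5 in the epithelial barcodes with no Mki67 or Top2a UMI. Each member was therefore paired with the non-cycling epithelial barcode of its own library that was nearest in UMIs, within 10%. This gave 198 and 123 pairs, called matched barcodes below, with medians of 26269 and 28189 UMIs. The members held 5297 and 5455 genes at the median, against 5145.5 and 5143 in matched barcodes. Mitochondrial shares had medians of 3.91% and 3.73% in members and 3.58% and 3.82% in matched barcodes. Summed hashtag counts were lower in members, with medians of 1171 and 681, against 2086 and 1529 in matched barcodes. No hashtag could be called for 49.3% and 48.0% of members, against 27.8% and 20.3% of matched barcodes. All epithelial barcodes with no Mki67 or Top2a UMI were nearer to the members. Their hashtag medians were 997 and 878, and 49.0% and 43.5% of them had no call. Of all barcode sequences, 22 occurred in both libraries.

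The label was checked with the cycle genes Ube2c and Birc5, which the rule did not use. Ube2c, the ubiquitin-conjugating enzyme of the anaphase promoting complex, had UMIs in 86.9% and 85.4% of members, against 4.55% and 3.25% of matched barcodes. Birc5, the survivin subunit of the chromosomal passenger complex, had UMIs in 91.4% and 95.1% of members, against 7.07% and 4.88% of matched barcodes. At the threshold itself, 19 and 13 members had exactly 3 UMIs of Mki67 and Top2a, and 89.5% and 92.3% of these had a UMI of Ube2c or Birc5. Just outside it, 38 and 23 barcodes had 2 UMIs, and 63.2% and 60.9% of these had one. Among barcodes with no Mki67 or Top2a UMI the share was 6.66% and 4.93%, at a lower median depth than in the other classes. Levels are a group's summed UMIs of a gene per 1000000 gene UMIs (CPM). The 4 endothelial markers summed to 1.28 and 1.46 CPM in members, against 1.12 and 0.730 CPM in matched barcodes, and the 3 adipocyte markers had no UMI. The 7 macrophage markers, of which the rule itself limits C1qa, C1qb and Tyrobp, summed to 76.5 and 71.2 CPM in members and to 70.4 and 79.8 CPM in matched barcodes. The 5 lymphocyte markers summed to 9.91 and 7.80 CPM in members and to 3.68 and 3.16 CPM in matched barcodes, and the 4 pericyte markers to 28.8 and 32.2 CPM against 33.3 and 32.6 CPM. The 6 fibroblast markers, which include the collagens of the rule, summed to 258 and 216 CPM in members and to 442 and 665 CPM in matched barcodes.

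Cycling barcodes made up 3.11% of epithelial barcodes in the COL1 and STIFF library (exact Clopper-Pearson 95% interval 2.70 to 3.56) and 1.83% in the MATR and SOFT library (1.52 to 2.18). The intervals did not overlap, but they cover counting error only, and each share came from 1 channel. Because a threshold in raw UMIs favours deep barcodes, all epithelial barcodes were also thinned to 3000 UMIs. At this depth 3.13% and 1.92% had at least 1 UMI of Mki67 or Top2a, and only 0.696% and 0.638% had at least 3. At the stricter threshold the libraries' intervals overlapped.

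Barcodes were next assigned to the lineage list that led them, that is the list of basal, HR-positive or HR-negative marker genes with the highest mean standardised level. These classes are ranges and not types. Of the members, 37 of 201 and 13 of 123 lay within 0.25 of the next list. The HR-positive-led epithelial barcodes held the lowest share of cycling barcodes in both libraries, 0.962% (0.617 to 1.43) and 0.324% (0.162 to 0.578). The share was 4.87% (4.08 to 5.77) and 3.35% (2.69 to 4.13) of HR-negative-led barcodes, and 3.65% (2.71 to 4.80) and 3.36% (2.21 to 4.89) of basal-led barcodes. The basal-led and HR-negative-led shares did not differ beyond their intervals in either library. After thinning, at least 1 UMI of Mki67 or Top2a was found in 1.28% and 0.706% of HR-positive-led barcodes, in 4.27% and 2.89% of HR-negative-led barcodes and in 4.32% and 4.01% of basal-led barcodes. The HR-positive-led class was the lowest after thinning too.

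**Figure D1:**
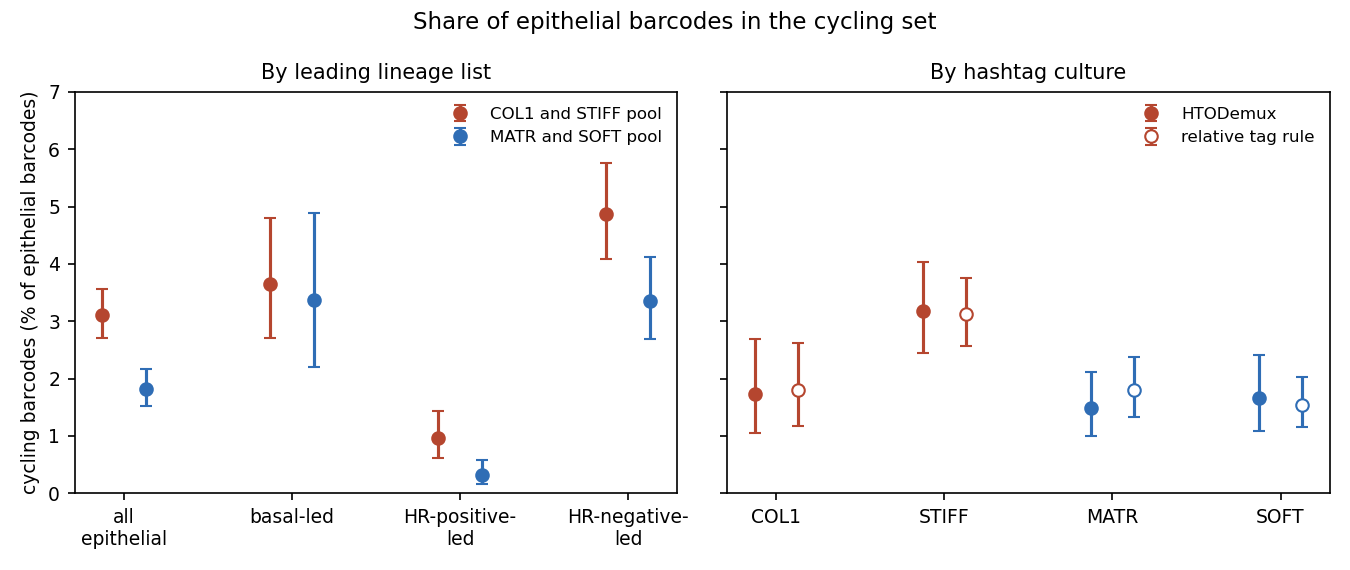
Share of epithelial barcodes in the cycling set, in percent, with exact 95% intervals (counting error only), by leading lineage list and library (left) and by hashtag culture under 2 ways of calling tags (right). HR-positive-led barcodes sit at 0.962% and 0.324%, below both other classes, and STIFF has the highest share of the cultures at 3.17%, with an interval that overlaps that of COL1.

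By hashtag culture, the share was 1.73% in COL1 (19 of 1097 epithelial barcodes, 1.05 to 2.69), 3.17% in STIFF (64 of 2018, 2.45 to 4.03), 1.48% in MATR (30 of 2027, 1.001 to 2.11) and 1.66% in SOFT (26 of 1570, 1.08 to 2.42). STIFF was the highest. Its interval overlapped that of COL1 and was clear of those of MATR and SOFT. COL1, MATR and SOFT did not differ beyond their intervals. Thinned to 3000 UMIs, at least 1 UMI of Mki67 or Top2a was found in 2.19% of COL1, 2.82% of STIFF (2.15 to 3.64), 1.28% of MATR (0.840 to 1.87) and 1.53% of SOFT barcodes (0.982 to 2.27), so the STIFF and SOFT intervals then overlapped. With a relative rule, under which a tag had to be at least 2 times the other after division by its background, the shares were 1.80% for COL1, 3.12% for STIFF, 1.80% for MATR and 1.55% for SOFT. The labels do not say which tag marked which culture. It was taken here from how the matrix files are named, and tags paired the other way would swap the cultures of a pool. Among barcodes with no tag call, 3.13% in the COL1 and STIFF library and 2.01% in the MATR and SOFT library were cycling, so the tagged cells are a part of each culture. Within HR-negative-led barcodes the shares were 4.01% for COL1 (12 cycling barcodes), 6.91% for STIFF (41), 3.25% for MATR (17) and 4.61% for SOFT (19). Within HR-positive-led barcodes the shares were 0.515%, 0.658%, 0.301% and 0.284% in the same order, from 3, 8, 4 and 3 cycling barcodes. Within basal-led barcodes they were 1.85% (0.507 to 4.67), 7.14% (4.05 to 11.5), 5.14% and 3.92%, from 4, 15, 9 and 4 cycling barcodes. Within each class the intervals of all 4 cultures overlapped. Under the relative rule the HR-negative-led shares were 3.13%, 5.71%, 3.18% and 3.26%, the HR-positive-led shares 0.938%, 0.501%, 0.358% and 0.167%, and the basal-led shares 1.37%, 4.67%, 4.09% and 3.02%. The order of COL1 and STIFF in HR-positive-led barcodes thus turned with the way of calling tags. It rested on 3 and 8 cycling barcodes, and under the relative rule on 6 and 8, with overlapping intervals both times.

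Seen from the members, HR-negative-led barcodes were the majority, with 63.7% (56.6 to 70.3) and 69.9% (61.0 to 77.9) of cycling barcodes, against 56.6% and 56.9% of matched barcodes. Basal-led barcodes were 24.4% (18.6 to 30.9) and 21.1% (14.3 to 29.4) of cycling barcodes and 11.6% (7.51 to 16.9) and 4.88% (1.81 to 10.3) of matched ones. HR-positive-led barcodes were 11.9% (7.80 to 17.2) and 8.94% (4.55 to 15.4) of cycling barcodes and 31.8% (25.4 to 38.8) and 38.2% (29.6 to 47.4) of matched ones. The basal-led and HR-positive-led intervals were clear of each other in both libraries, and the HR-negative-led intervals overlapped. In all non-cycling epithelial barcodes, without the depth match, basal-led barcodes were 20.5% and 11.2%, so that in the COL1 and STIFF library the basal-led excess rested on the match. HR-negative-led barcodes were 39.7% (38.4 to 40.9) and 37.1% (35.9 to 38.3) of all non-cycling epithelial barcodes. These intervals were clear of those of the members in both libraries, so the overlap for this class rested on the match too. Keratins of both pairs, Krt8 with Krt18 and Krt5 with Krt14, each reached 10 per 10000 UMIs in 11.9% and 6.50% of members and in 5.05% and 3.25% of matched barcodes. Such barcodes were 13 of 49 and 3 of 26 basal-led members. Both hashtags were called in 4 of the 49 and in 0 of the 26 basal-led members, and in 6 of 24 and 2 of 11 HR-positive-led members. They were called in 9 of 128 and 6 of 86 HR-negative-led members. Over all members both hashtags were called in 9.45% and 6.50%, and in matched barcodes in 9.09% and 9.76%. In all non-cycling epithelial barcodes, without the depth match, they were called in 2.63% and 2.88%. Of the epithelial barcodes with both hashtags called, 10.3% (6.30 to 15.6) and 3.90% (1.70 to 7.54) were cycling. The part of doublets in these shares was not tested.

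**Figure D2:**
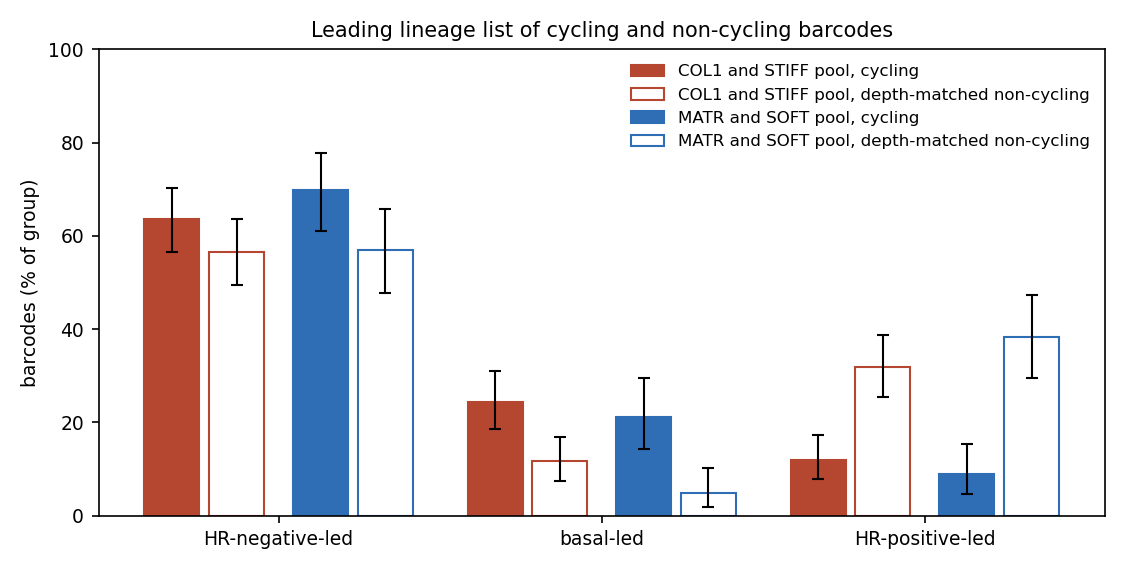
Percent of cycling (filled) and depth-matched non-cycling (open) barcodes led by each lineage list in each library, with exact 95% intervals for counting error. Cycling barcodes hold 24.4% and 21.1% basal-led barcodes and 11.9% and 8.94% HR-positive-led ones, against 11.6% and 4.88% basal-led and 31.8% and 38.2% HR-positive-led in matched barcodes.

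Gene levels were compared in CPM. A gene counted as higher or lower when its ratio, with 5 CPM added to both sides, passed 1.5-fold in the same direction in both libraries. Of 5496 genes with a mean of at least 20 CPM, 394 were higher in cycling barcodes (7.17%) and 175 were lower (3.18%). Since Mki67 and Top2a chose the members, this contrast is a description with no test. The median log2 ratio of all 5496 genes was 0.02 and 0.04. Of the 394 higher genes, 113 stood in the cycle lists used here and 257 stood in none of the lists. When non-cycling barcodes were also matched on leading lineage list, 337 of 5493 genes were higher (6.14%) and 119 lower (2.17%), of which 312 and 90 were called under both matches. In the hashtag cultures, the same side was seen for 372 of the 394 higher genes in COL1, for 392 each in STIFF and MATR, and for 380 in SOFT. The cultures' barcodes are part of the libraries that made the calls.

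**Figure D3:**
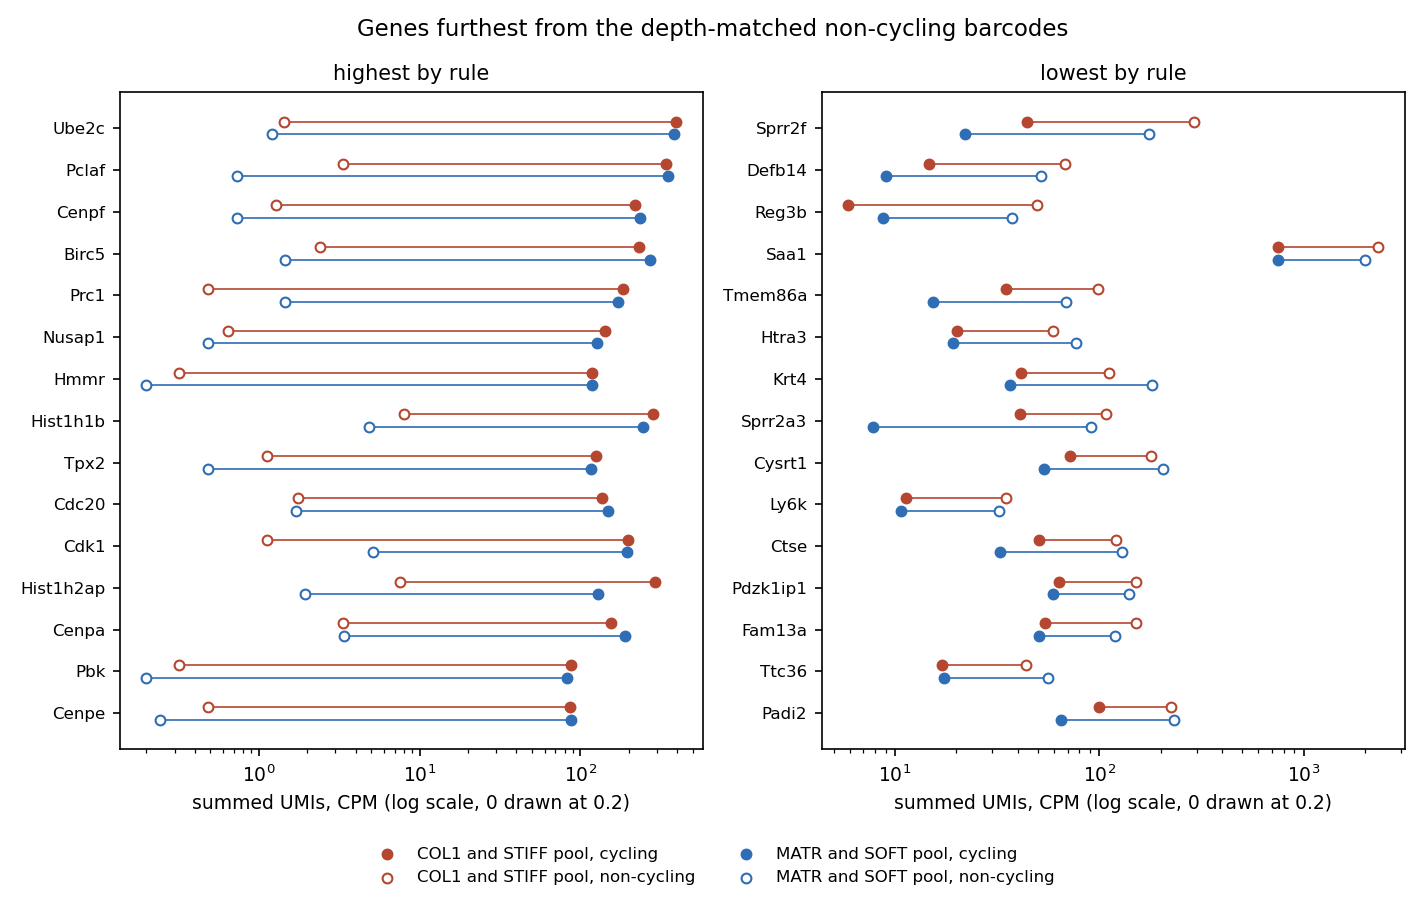
Summed level in CPM (log axis) in cycling (filled) and depth-matched non-cycling (open) barcodes of both libraries, for the 15 highest and the 15 lowest genes by the smaller of both log2 ratios. The highest genes stand at 82.1 to 396 CPM in cycling barcodes and at 8.00 CPM or less in matched barcodes, with values of 0 drawn at 0.2. The lowest genes stand at 5.91 to 751 CPM in cycling barcodes and at 32.4 to 2320 CPM in matched barcodes.

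The replication genes came first in order of function. Of 19 licensing and firing genes, 10 passed the 20 CPM filter and 9 were higher, and all 19 had ratios above 1 in both libraries. In this and all cycle lists below, many genes passed the filter through their level in cycling barcodes alone, so the count over those that passed had to be high, against 7.17% of all measured genes, and supports nothing. The median log2 ratio over all listed genes was 1.61 and 1.69. Mcm5, a helicase subunit, had 42.8 and 51.2 CPM in cycling barcodes and 2.08 and 3.16 CPM in matched barcodes. In the cultures Mcm5 had 17.7 CPM in COL1, 54.1 CPM in STIFF, 38.7 CPM in MATR and 62.0 CPM in SOFT in cycling barcodes, each above the 1.28 to 7.22 CPM of the cultures' matched barcodes. Gmnn, the geminin that blocks renewed licensing, had 81.2 and 97.7 CPM in cycling barcodes and 16.5 and 19.5 CPM in matched ones. Gins3, of the GINS helicase complex, had the lowest ratio of the list, at log2 0.31 and 0.90.

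Of 31 replication fork genes 15 were higher among 16 that passed the filter, with a median log2 ratio of 1.58 and 1.60. Pclaf, the PCNA-associated factor, was second to Ube2c in log2 ratio with 5 CPM added among genes outside the rule, with 344 and 349 CPM in cycling barcodes and 3.36 and 0.730 CPM in matched ones. Its fold was 102 (conditional binomial 95% interval 66.7 to 166) and 479 (163 to 2324). Such fold intervals, here and below, cover counting error only and leave out the spread between barcodes and between cultures. Pcna, the sliding clamp, was less far apart, with 141 and 138 CPM in cycling barcodes and 43.2 and 37.2 CPM in matched barcodes. Pold3, a subunit of polymerase delta, was the lowest, with log2 ratios of 0.46 and 0.28. Of 20 nucleotide synthesis genes 9 were higher among 13 that passed, with medians of 1.12 and 1.11. Rrm2, the ribonucleotide reductase subunit that limits deoxynucleotide supply, had 73.8 and 82.6 CPM in cycling barcodes and 1.28 and 0.730 CPM in matched ones. The subunit Rrm1 had 96.7 and 89.7 CPM against 17.1 and 11.4 CPM. Paics, an enzyme of purine synthesis, had 131 and 138 CPM in cycling barcodes and 86.9 and 91.9 CPM in matched ones, just under the threshold.

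Of 17 listed histone genes 10 passed the filter, of which 7 were higher and 1 lower. Hist1h1b, a linker histone gene, had 283 and 246 CPM in cycling barcodes and 8.00 and 4.86 CPM in matched ones. Hist1h2ap had 293 and 129 CPM against 7.52 and 1.95 CPM. By contrast Hist1h2bc had 73.2 and 47.0 CPM in cycling barcodes and 132 and 82.7 CPM in matched ones, and Hist1h1c had log2 ratios of -0.63 and -0.41. H3f3b, a replication-independent H3.3 gene, had log2 ratios of -0.10 and -0.02. Most replication-dependent histone messages lack a poly(A) tail and have near-identical copies, so these counts follow the polyadenylated and uniquely assigned part. H2afz, the H2A.Z variant, had 1702 and 1795 CPM in cycling barcodes and 423 and 450 CPM in matched ones. In chromatin and nuclear architecture, 18 of 21 genes that passed the filter were higher and none lower, with medians of 1.22 and 1.34 over the 24 listed. Hmgb2, a DNA-bending protein, had 827 and 870 CPM against 67.7 and 59.8 CPM, and was above its matched barcodes in COL1, STIFF, MATR and SOFT alike, at 546 to 775 CPM against 54.9 to 70.5 CPM. Its relative Hmgb1 moved less, with 935 and 897 CPM against 403 and 361 CPM. Lmnb1, a B-type lamin of the nuclear lining, had log2 ratios of 2.59 and 2.64, whereas the A-type lamin gene Lmna had 0.08 and 0.14.

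The spindle, kinetochore and kinase lists had the highest medians of the 40 lists. Median log2 ratios were 2.80 and 2.87 for 34 spindle and cytokinesis genes (17 of 18 that passed were higher) and 2.67 and 2.67 for 31 kinetochore genes (12 of 13). For 23 mitotic kinases and cyclins the medians were 2.55 and 2.77, with 11 of 12 higher. Over all listed genes, ratios were above 1 in both libraries for 34 of 34, 30 of 31 and 23 of 23. The list of 15 anaphase promoting complex and checkpoint genes had lower medians of 1.14 and 1.02, and 8 of 11 that passed were higher. Ube2c had the highest log2 ratio with 5 CPM added outside the rule's genes, with 396 and 385 CPM in cycling barcodes and 1.44 and 1.22 CPM in matched barcodes. Its fold was 275 (145 to 602) and 317 (135 to 977). In the cultures Ube2c had 290 CPM in COL1, 331 CPM in STIFF, 401 CPM in MATR and 307 CPM in SOFT in cycling barcodes, and 6.39, 1.70, 3.38 and 1.88 CPM in their matched barcodes. The 4 cultures differed far less from each other than each did from its matched barcodes. No single member held more than 6.52% of the Ube2c UMIs of its library's members.

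Cdk1, the kinase of mitotic entry, had 197 and 195 CPM in cycling barcodes and 1.12 and 5.11 CPM in matched ones. Its partners Ccna2, Ccnb1 and Ccnb2 had 73.8 to 112 CPM in cycling barcodes and at most 1.44 CPM in matched ones. Wee1, which inhibits Cdk1, was the lowest of the list, at log2 ratios of 0.33 and 0.80. Cdc20, the activator that starts anaphase, had 137 and 148 CPM against 1.76 and 1.70 CPM. Its alternative Fzr1, which acts later and in G1, had 56.9 and 56.8 CPM against 36.2 and 29.4 CPM. Of the core subunits, Cdc26 had log2 ratios of 0.06 and 0.30, Cdc16 had 0.27 and 0.11, and Anapc5 was higher at 0.72 and 0.94. Among kinetochore genes, Cenpf, a large outer kinetochore protein, had 220 and 236 CPM against 1.28 and 0.730 CPM. Zwint, which links the checkpoint proteins to the kinetochore, was alone among the 31 in having no ratio above 1 in both libraries, with 60.4 and 55.8 CPM in cycling barcodes and 60.0 and 65.2 CPM in matched ones. Prc1, the bundler of the central spindle, had 186 and 172 CPM against 0.480 and 1.46 CPM. Stmn1, a microtubule destabiliser, was already present in matched barcodes, with 433 and 515 CPM in cycling barcodes and 40.6 and 39.4 CPM in matched ones. All 15 condensin and cohesin genes had ratios above 1 in both libraries, and 6 of 9 that passed were higher. The condensin subunit Smc2 had log2 ratios of 3.46 and 3.52, and the cohesin subunits Smc1a and Smc3 had 0.76 to 0.95.

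Promoters of cycle genes often carry the CHR element (TTTGAA or TTCGAA) and CCAAT boxes, bound by the MuvB complex and NF-Y, or E2F sites, here searched as TTCCCGC or TTGGCGC. The 250 bases before the RefSeq start (GRCm38.p6) were searched on both strands. The following 120-base stretches end at the base before the start and are shown because these genes had the highest ratio of the 4 mitotic lists (anaphase promoting complex, kinases, kinetochore and spindle) and the 3 replication lists (licensing, fork and nucleotides), in this order. Capitals mark every match to a motif, or its reverse complement.

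Ube2c: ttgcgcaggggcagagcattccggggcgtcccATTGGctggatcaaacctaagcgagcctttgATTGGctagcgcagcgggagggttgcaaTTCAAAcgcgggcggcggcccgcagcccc
Cdk1: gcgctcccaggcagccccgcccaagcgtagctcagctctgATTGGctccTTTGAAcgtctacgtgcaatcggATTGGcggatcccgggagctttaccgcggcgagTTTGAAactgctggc
Cenpf: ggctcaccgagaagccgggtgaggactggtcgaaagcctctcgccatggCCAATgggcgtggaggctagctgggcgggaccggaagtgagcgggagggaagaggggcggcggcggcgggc
Prc1: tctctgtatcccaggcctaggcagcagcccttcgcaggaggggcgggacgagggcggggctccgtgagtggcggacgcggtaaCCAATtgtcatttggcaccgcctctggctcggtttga
Mcm5: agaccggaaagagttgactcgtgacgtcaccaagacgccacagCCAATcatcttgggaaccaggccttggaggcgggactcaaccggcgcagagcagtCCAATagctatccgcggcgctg
Pclaf: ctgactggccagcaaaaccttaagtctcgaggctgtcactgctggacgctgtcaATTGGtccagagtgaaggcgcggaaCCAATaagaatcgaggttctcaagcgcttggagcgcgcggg
Rrm2: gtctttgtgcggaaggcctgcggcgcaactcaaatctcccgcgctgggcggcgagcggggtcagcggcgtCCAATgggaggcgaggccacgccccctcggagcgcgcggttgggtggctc

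The Ube2c stretch lies at chr2:164769809-164769928 on the plus strand, Cdk1 at chr10:69352913-69353032 on the minus strand, and Cenpf at chr1:189688087-189688206 on the minus strand. Prc1 lies at chr7:80294331-80294450, Mcm5 at chr8:75109389-75109508, Pclaf at chr9:65890203-65890322 and Rrm2 at chr12:24708134-24708253, all on the plus strand. Ube2c had 1 CHR match and 2 CCAAT matches here, and Cdk1 had 2 of each. The other 5 stretches had no CHR match in these letters. Mcm5 and Pclaf had 2 CCAAT matches each, and Cenpf, Prc1 and Rrm2 had 1 each. None of the 7 had an E2F match, whose letters can overlap a CCAAT box. The stretch before Birc5 had no match to any motif.

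A CHR together with a CCAAT was present before 6.213% of the 27025 genes searched and 4.679% of the 4403 measured genes with a promoter. It was present before 26.14% of the 88 listed genes of the 4 mitotic lists (kinases, anaphase promoting complex, kinetochore and spindle) that had a promoter, and 8.621% of 58 genes of the 3 replication lists (licensing, fork and nucleotides). The E2F letters stood before 5.706% of all genes searched, 11.2% of the measured genes, 11.36% of the mitotic lists and 25.86% of the replication lists. Of 307 higher genes with a promoter, 15.31% had a CHR and a CCAAT and 17.59% had an E2F match, while of 129 lower genes 5.426% and 7.752% had them. A match is a description of letters and not a bound site.

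The 70 replication genes and the 103 mitotic genes were also summed in each barcode. Replication genes had a median of 33.7 and 33.5 UMIs per 10000 in members, against 9.36 and 9.55 in matched barcodes. Mitotic genes had a median of 95.8 and 88.9 per 10000 in members and 16.6 and 18.3 in matched barcodes. Members spread widely, with lowest and highest mitotic sums of 11.6 and 318 in the COL1 and STIFF library and 13.3 and 386 in the MATR and SOFT library. In 186 of 201 and 114 of 123 members (92.5% and 92.7%) either sum exceeded that of every matched barcode of the library. In the other 15 and 9 members neither did, and the groups overlapped there.

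Replication sums exceeded mitotic sums in 12 of 201 and 16 of 123 members. The cyclin E genes, which act at the start of S phase and stood in neither sum, were compared between these members and the others. Ccne2 had 29.2 and 25.4 CPM in members whose replication sum was larger, against 5.39 and 5.07 CPM in the other members. It had a UMI in only 33.3% of these 12 members and 56.25% of these 16, against 12.7% and 11.2% of the others. Ccne1 had 61.6 and 27.2 CPM against 12.04 and 12.9 CPM. Hist1h1b did not keep 1 direction, with 347 and 162 CPM against 276 and 260 CPM. Mki67 and Top2a are known to peak late in the cycle, and how many early S phase cells the rule leaves out was not tested.

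**Figure D4:**
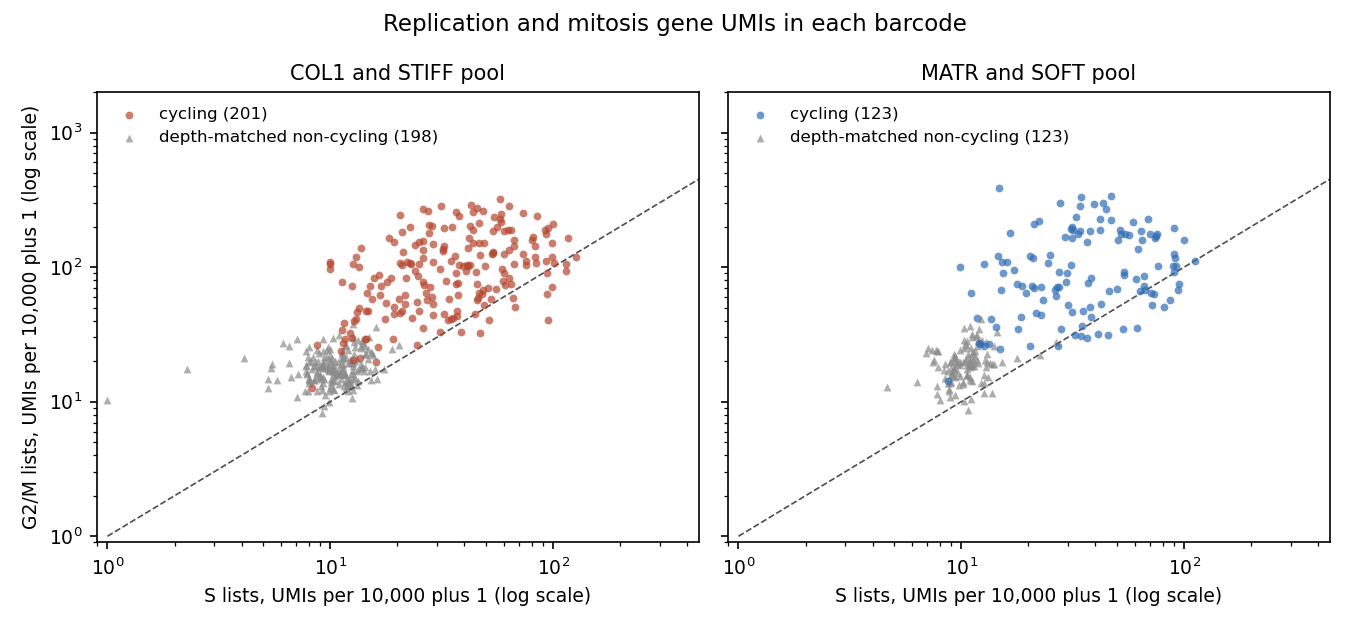
UMIs per 10000 plus 1 of the 70 replication genes (S lists, horizontal) and the 103 mitotic genes (G2/M lists, vertical) in each cycling (colour) and depth-matched non-cycling (grey) barcode, on log axes, with the line of equal sums dashed. Most members lie above and to the right of the matched barcodes, 12 and 16 fall below the line, and 15 and 9 lie within the range of matched barcodes on both axes.

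Control of entry into the cycle differed less. Ccnd1, the cyclin D that answers growth signals, had 251 and 291 CPM in cycling barcodes and 107 and 120 CPM in matched ones, a fold of 2.34 (2.14 to 2.57) and 2.42 (2.18 to 2.70). In the cultures Ccnd1 had 169 CPM in COL1, 269 CPM in STIFF, 263 CPM in MATR and 391 CPM in SOFT in cycling barcodes and 103, 115, 135 and 58.2 CPM in matched ones. Each culture was above its own matched barcodes. Ccnd3 had 65.7 and 58.0 CPM against 65.3 and 62.3 CPM. Cdk4, their kinase, had log2 ratios of 0.62 and 0.49, which passed the threshold in 1 library only. Ccne1 had 15.02 and 14.9 CPM against 1.92 and 0.730 CPM, below the filter.

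CDK inhibitors did not move as a group. Cdkn2d, the p19 INK4 protein, was higher, with 66.1 and 61.7 CPM in cycling barcodes and 21.6 and 19.7 CPM in matched ones. Cdkn2c, the p18 INK4 protein, had 25.4 and 30.2 CPM against 6.56 and 9.24 CPM, below the filter. Cdkn1a, the p21 protein that p53 induces, had 90.9 and 65.8 CPM in cycling barcodes and 120 and 154 CPM in matched ones, past the threshold only in the MATR and SOFT library. Cdkn1b, the p27 protein, had log2 ratios of -0.03 and 0.05. Of 13 p53 target and antiproliferative genes that passed the filter, 1 was higher and 3 were lower. Of all measured genes 7.17% were higher, near the share in this list, and 3.18% were lower. The higher one was Gas1, a growth arrest gene, with 77.3 and 52.9 CPM against 43.4 and 31.4 CPM. Gadd45a, a stress-induced growth arrest gene, was among the lower ones with 70.5 and 48.0 CPM against 144 and 128 CPM. Plk2, which p53 also induces, had 123 and 92.9 CPM against 217 and 230 CPM. With the lineage match 1 of the list was lower and 0 were higher, so Gas1 was no longer called. Among transcription factors of the cycle, only Tfdp1, the partner of E2F proteins, passed both filter and threshold, with 55.6 and 48.3 CPM against 18.1 and 14.3 CPM. E2f8, a repressor of the E2F family, and Mybl2, the B-Myb activator, had 9.91 to 14.2 CPM in cycling barcodes and at most 0.320 CPM in matched ones, below the filter. Myc had log2 ratios of 0.37 and 0.29.

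Growth and metabolism genes moved by smaller amounts. In ribosome biogenesis 12 of 17 measured genes were higher and none lower, where 7.17% of all measured genes were higher. The median log2 ratio over the 20 listed genes was 0.69 and 0.66. Nop56, of the box C/D particles that methylate ribosomal RNA, had 102 and 103 CPM in cycling barcodes and 40.5 and 39.6 CPM in matched ones. Pes1, of the large subunit processome, had 0.01 and 0.06 on the log2 scale. With the lineage match 8 of the list were higher. In cholesterol synthesis 4 of 9 measured genes were higher, against the same 7.17%, with medians of 0.42 and 0.63. Fdps, which makes farnesyl diphosphate, had 201 and 190 CPM against 97.3 and 62.3 CPM, and Idi1, the isomerase before it, had 63.7 and 60.9 CPM against 19.04 and 14.1 CPM. None of 17 respiratory chain genes and none of 13 glycolysis genes passed the threshold. All 13 glycolysis genes had ratios below 1 in both libraries, with medians of -0.31 and -0.46, and 16 of 17 respiratory chain genes had ratios above 1, with medians of 0.27 and 0.23. Gapdh had 2351 and 2254 CPM in cycling barcodes and 2926 and 3266 CPM in matched ones. Levels are shares of all UMIs of a group. Scaling by trimmed mean of M-values would lower the log2 ratios by 0.01 and 0.06.

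**Figure D5:**
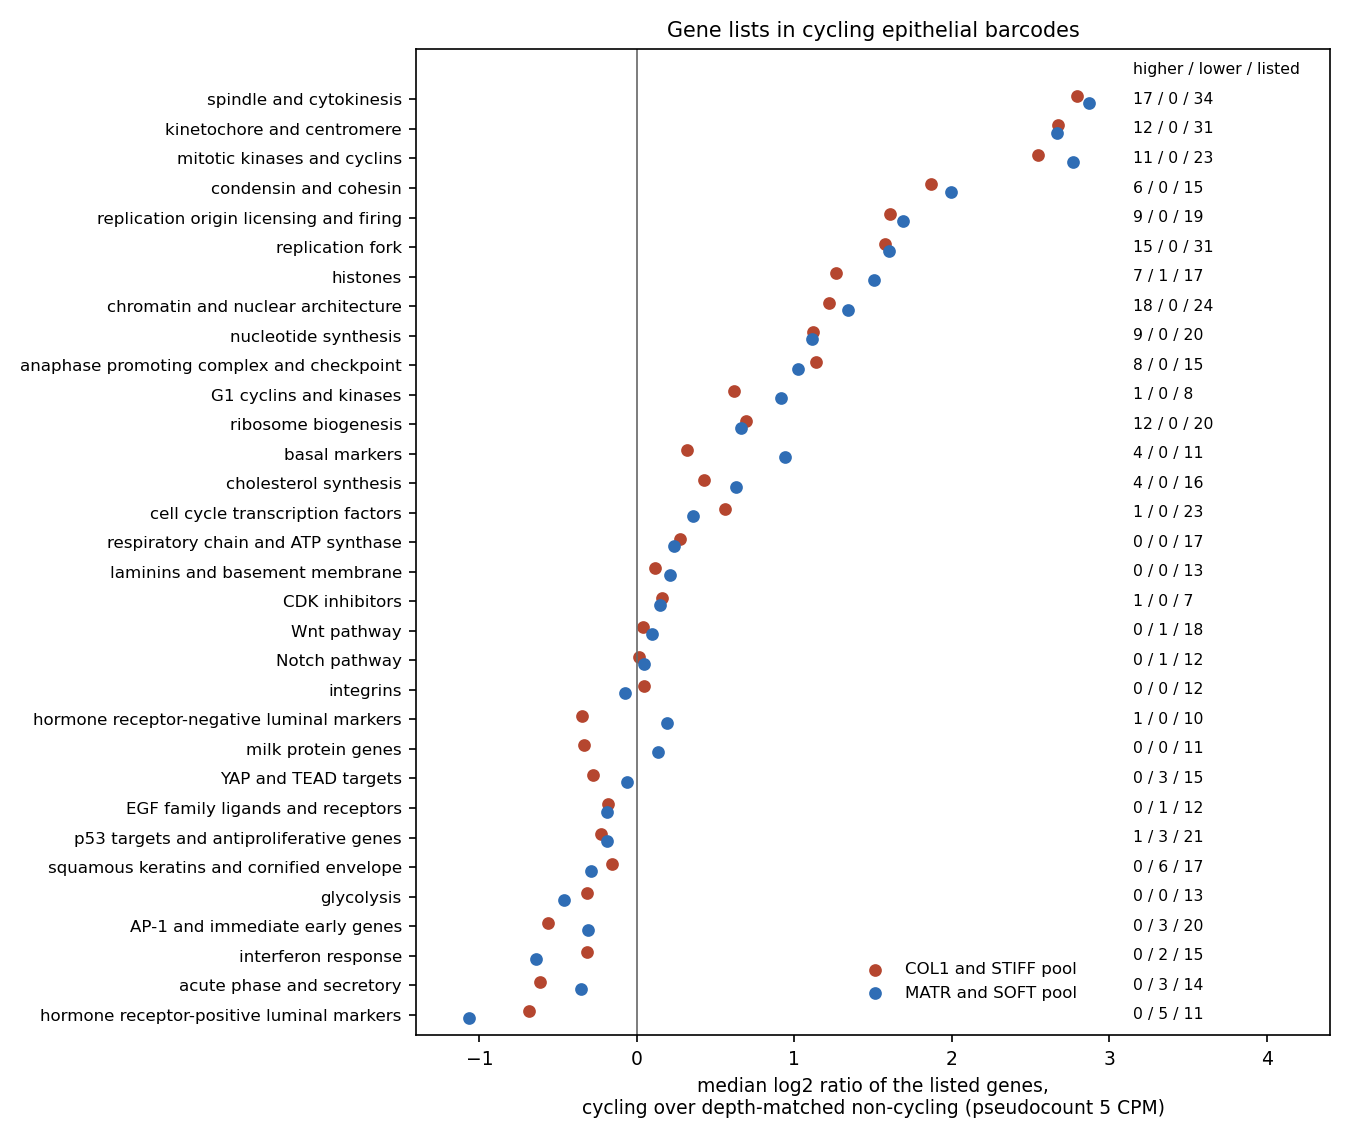
Median log2 ratio over all listed genes, cycling over depth-matched non-cycling, in both libraries, for the lists with at least 4 measured genes, with the numbers of genes counted as higher, as lower and as listed. Spindle, kinetochore and kinase lists lie at 2.55 to 2.87, replication lists at 1.11 to 1.69, and the HR-positive marker list lowest at -0.68 and -1.07.

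Among HR-positive markers 5 of 8 measured genes were lower with the depth match and 1 with the lineage match, against 3.18% and 2.17% of all measured genes. Prlr, the prolactin receptor, had 563 and 260 CPM in cycling barcodes and 1026 and 890 CPM in matched ones. Pgr, the progesterone receptor, had 37.9 and 26.6 CPM against 79.0 and 86.3 CPM. Areg, the ligand by which these cells signal to their neighbours, had 631 and 288 CPM against 1182 and 1136 CPM. With the lineage match the log2 ratios were -0.56 and -1.05 for Prlr, -0.68 and -0.92 for Pgr and -0.52 and -1.11 for Areg. In the cultures Areg had 894 CPM in COL1, 794 CPM in STIFF, 335 CPM in MATR and 373 CPM in SOFT in cycling barcodes and 856, 1190, 780 and 707 CPM in matched ones, so COL1 did not go the way of the others. Esr1, the estrogen receptor, had 8.31 and 3.66 CPM against 15.2 and 9.97 CPM, below the filter. Of 5 basal markers that passed, 4 were higher with the depth match, against 7.17% of all measured genes. They were led by Acta2, smooth muscle actin, with 476 and 333 CPM against 219 and 100.0 CPM. No basal marker was higher with the lineage match, where Acta2 had log2 ratios of 0.35 and -0.23.

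Saa1, an acute phase serum amyloid protein, kept its difference under both matches. It had 751 and 747 CPM in cycling barcodes and 2320 and 1992 CPM in matched ones, a fold of 0.324 (0.313 to 0.334) and 0.375 (0.359 to 0.391). With the lineage match its log2 ratios were -1.46 and -1.26. In the cultures Saa1 had 1041 CPM in COL1, 640 CPM in STIFF, 709 CPM in MATR and 986 CPM in SOFT in cycling barcodes, all below the 2009 to 3196 CPM of the matched barcodes. Cp, the copper carrier ceruloplasmin, had 204 and 241 CPM against 374 and 398 CPM. Of 7 measured genes for squamous keratins and the cornified envelope 6 were lower with the depth match and 3 with the lineage match. Of all measured genes 3.18% and 2.17% were lower under these matches. Krt4 had 41.5 and 36.6 CPM against 111 and 181 CPM. Sprr2f had the lowest ratio of all genes, with 44.3 and 21.9 CPM against 289 and 176 CPM, but 1 barcode held 50.7% of the UMIs in matched barcodes of the MATR and SOFT library. With the lineage match its log2 ratios were -0.67 and -0.38. Reg3b rested on few barcodes too, since 1 held 80.3% of its UMIs in matched barcodes of the COL1 and STIFF library. Without the top barcode of each group its log2 ratios were -0.69 and -2.20, against -2.32 and -1.62 with it.

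Of 19 measured immediate early genes 3 were lower under the threshold, where 3.18% of all measured genes were. In both libraries 16 of 20 listed had ratios below 1, with medians of -0.56 and -0.31. Klf2, a shear-responsive factor in endothelium, had 304 and 143 CPM in cycling barcodes and 524 and 262 CPM in matched ones. Fos had 3208 and 2305 CPM against 4334 and 2921 CPM, short of the threshold. Dissociation is known to induce such genes, and its part in these values was not tested. Of 10 measured interferon response genes 2 were lower, against the same 3.18%. Irf7 had 48.6 and 61.4 CPM against 105 and 118 CPM.

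Among the HR-negative markers 1 of 10 was higher and none lower, near the 7.17% higher and 3.18% lower among all measured genes. Aldh1a3, a retinaldehyde dehydrogenase of luminal progenitors, had 39.9 and 32.2 CPM in cycling barcodes and 15.5 and 15.3 CPM in matched ones. A single barcode held 47.4% and 42.9% of its UMIs in matched barcodes, and without the top barcodes its log2 ratios were 1.65 and 1.21, against 1.13 and 0.87 with them. In the cultures it was 11.4 CPM in COL1, 41.0 CPM in STIFF, 29.5 CPM in MATR and 63.9 CPM in SOFT in cycling barcodes and 10.2, 41.2, 2.53 and 4.70 CPM in matched ones, so in STIFF the groups did not differ and in COL1 they lay close together. Trf, transferrin, had 1767 and 2217 CPM against 3848 and 2756 CPM, past the threshold in the COL1 and STIFF library alone.

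The cycle program itself was compared between members led by different lineage lists. In the MATR and SOFT library the 31 kinetochore genes summed to 2921 CPM in basal-led members, 1468 in HR-positive-led members and 1776 in HR-negative-led members. In the COL1 and STIFF library the sums were 2009, 1422 and 1749 CPM in the same order. Spindle genes summed to 6359, 3661 and 3728 CPM in the MATR and SOFT library and to 4989, 3292 and 4005 CPM in the other. Basal-led members were thus the highest in both libraries, and they were shallower, with medians of 19393 and 20265.5 UMIs, against 30441 and 31197 in HR-negative-led members. A raw threshold admits shallow barcodes only at higher shares of Mki67 and Top2a, and this part was not tested. Licensing genes lay closer together, at 592, 498 and 618 CPM in the COL1 and STIFF library and 719, 733 and 650 CPM in the MATR and SOFT library. Replication sums exceeded mitotic sums in 3 of 49 and 4 of 26 basal-led members and in 8 of 128 and 12 of 86 HR-negative-led members, shares whose intervals overlapped. Ccnd1 had its highest level in HR-negative-led members, with 297 and 329 CPM, against 175 and 145 CPM in basal-led members.

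Between libraries, cycling barcodes of the COL1 and STIFF pool were set against those of the MATR and SOFT pool. Of 5747 genes 73 were higher by 1.5-fold (1.27%) and 22 were lower (0.383%). The 5747 held 10 licensing, 22 fork, 18 nucleotide, 17 kinase, 13 anaphase, 23 kinetochore and 29 spindle genes, of which none was called. With shares of 1.27% and 0.383% over all genes, few calls would fall among so few genes, so this count says little. Fn1, the matrix protein fibronectin, was the furthest apart, with 143 CPM in the COL1 and STIFF pool and 24.6 CPM in the MATR and SOFT pool, a log2 ratio of 2.32 against 0.63 in matched barcodes. Among members, 1 barcode held 26.7% of the Fn1 UMIs of the COL1 and STIFF pool. By culture Fn1 had 48.1 CPM in COL1, 95.6 CPM in STIFF, 15.2 CPM in MATR and 64.8 CPM in SOFT, so that SOFT lay above COL1. Hist1h2ap had 288 CPM in the COL1 and STIFF pool and 129 CPM in the MATR and SOFT pool, with 274 CPM in COL1, 249 CPM in STIFF, 120 CPM in MATR and 73.3 CPM in SOFT. In this gene both cultures of each pool lay on the same side.

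Ltf, the iron-binding milk protein lactoferrin, had 247 CPM in cycling barcodes of the COL1 and STIFF pool and 594 CPM in those of the MATR and SOFT pool, a log2 ratio of -1.25 against -0.84 in matched barcodes. By culture it had 462 CPM in COL1, 294 CPM in STIFF, 886 CPM in MATR and 476 CPM in SOFT. Csf3, the granulocyte growth factor G-CSF, had 37.6 CPM in the COL1 and STIFF pool and 75.8 CPM in the MATR and SOFT pool. It also differed from matched barcodes, where it had 9.28 and 7.78 CPM. By culture Csf3 had 8.85 CPM in COL1, 48.6 CPM in STIFF, 109 CPM in MATR and 114 CPM in SOFT in cycling barcodes and 5.11, 17.0, 3.38 and 1.88 CPM in matched ones. Fst, the activin antagonist follistatin, had 64.8 CPM in the COL1 and STIFF pool and 121 CPM in the MATR and SOFT pool, against 25.8 and 13.6 CPM in matched barcodes. It was highest in basal-led members, at 210 and 542 CPM. In the MATR and SOFT pool a single member held 30.2% of the Csf3 UMIs and 26.3% of the Fst UMIs.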

How the data were processed

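The authors' deposited matrices hold raw UMI counts, whole numbers for each of 32285 genes and 3 antibody rows. Per the submitters' processing notes they used Cell Ranger (5.0.0), the mm10 build and Seurat (4.2.0). The labels' protocol mentions both V2 and V3 reagents. Each pool's gene expression entry was used, with 2 of the antibody rows as hashtags. Members and gene lists were chosen with earlier results of these data known. Members held 6619582 and 4103113 UMIs in sum.

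Tools were Python 3.11.15, numpy 2.4.6, scipy 1.17.1, pandas 2.3.3, scanpy 1.11.5, matplotlib 3.10.9, R 4.3.3 and Seurat 5.3.0, whose HTODemux called tags (quantile 0.99). Lineage classes used 3 marker lists that leave out the rule's keratins. Scrublet called 0 doublets and so did not work as a filter. Barcodes with both tags or with the highest 5% of scores were left out only as alternatives. Ratios have exact conditional binomial intervals and shares Clopper-Pearson intervals, at 95%, and both cover counting error only. The code was tested on simulated data, and no p-value was computed.

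The naming rule took the 15 highest and 15 lowest genes by the smaller log2 ratio of both libraries, each list's highest and lowest member, cyclins, CDK inhibitors and hormone receptors, the rule's markers, and the 6 highest and 6 lowest between libraries. It left out mitochondrial, ribosomal protein, globin, Xist and Y-linked genes and unnamed models. Genes named beyond this rule were picked with their values in view.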

Additional observations from a re-analysis of the deposited data

Results flagged for a closer look

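Among lists whose median ratios lay on opposite sides of 1 in the libraries, 2 were flagged, and these differences were not tested. Others lay on opposite sides too, such as the milk protein genes, at log2 -0.34 and 0.13 over all listed genes. Over the measured milk protein genes the medians were -0.01 and 0.13. The measured HR-negative markers had a median log2 ratio, cycling over matched, of -0.35 in the COL1 and STIFF library and 0.19 in the MATR and SOFT library. The 3 measured genes of a keratin list (Krt7, Krt19 and Krt17, which also stood in the basal marker list) had medians of 0.19 and -0.51. These were the values of Krt7, since Krt17 was higher and Krt19 lower in both libraries. Among single genes, Saa3, an acute phase gene, had log2 ratios of -0.68 and 0.64, with 28.4 and 41.4 CPM in cycling barcodes and 48.5 and 24.8 CPM in matched ones. In matched barcodes of the COL1 and STIFF library 1 barcode held 42.6% of the Saa3 UMIs. Gjb2, the gap junction protein a connexin, had -0.59 and 0.72, with 15.02 and 26.6 CPM in cycling barcodes and 25.1 and 14.1 CPM in matched ones.

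Outside the epithelial rule, 151 of 1205 filtered barcodes of the COL1 and STIFF library and 105 of 941 of the MATR and SOFT library also had at least 3 UMIs of Mki67 and Top2a, which is 12.5% and 11.2%. Of these, 89 and 82 reached the limit for C1qa, C1qb and Tyrobp, 65 and 23 reached the collagen limit, and 101 and 84 fell short of the keratin limit. They were left out of every comparison above.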

How the results depend on the processing

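No paired analysis was possible because each condition was 1 culture and each pool 1 library. The share of cycling barcodes, the lineage shares and the counts of genes were recomputed under the alternatives. The count of higher genes was 661 with a filter at 5 CPM and 200 at 50 CPM, and that of lower genes was 100 at 50 CPM, 102 with a pseudocount of 20 CPM and 267 without the depth match. Fewer genes pass a stricter filter by construction. Without the depth match HR-negative-led barcodes were 39.7% and 37.1% of non-cycling barcodes, HR-positive-led 39.9% and 51.6%, and basal-led 20.5% and 11.2%. With at least 5 UMIs of Mki67 and Top2a the cycling share of the COL1 and STIFF library was 2.60%, and thinned to 3000 UMIs with at least 3 UMIs it was 0.696% and 0.638%. Sprr2f turned to a log2 ratio of 0.46 in the MATR and SOFT library among HR-negative-led barcodes, an alternative added after seeing the data, and the cause was not tested. The other 68 alternative values of shares and counts stayed within their interval or within 1.5 times. Single genes and lists were held to another measure, the standard deviation of both libraries' log2 ratios. It is small where the libraries lie close together, so that a small shift can count as a move. By this measure 694 values moved and 1489 did not. Of the 175 lower genes 51.4% were also called with the lineage match, and of the 394 higher genes 79.2%.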

Other observations

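Several genes known to be induced by low oxygen were lower in cycling barcodes. They were picked with their values in view and come with no test. Bnip3, a mitophagy receptor, had 109 and 102 CPM in cycling barcodes and 230 and 226 CPM in matched ones. Vegfa, the vascular growth factor, had 49.8 and 54.1 CPM against 97.8 and 103 CPM. Ero1l, an oxidase of the endoplasmic reticulum, had 66.8 and 81.9 CPM against 130 and 188 CPM, and Ndrg1 had 78.3 and 132 CPM against 143 and 281 CPM. All 4 were lower under the lineage match too. For Bnip3 the log2 ratios were then -0.82 and -0.83, and for Vegfa they were -0.87 and -0.94.

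Among the 257 higher genes that stood in none of the lists were Dek, Nasp and Psat1, picked with their values in view. Dek, a chromatin protein, had 231 and 219 CPM in cycling barcodes and 69.9 and 65.7 CPM in matched ones. Nasp, a histone chaperone, had 125 and 126 CPM against 35.4 and 30.2 CPM. Psat1, an enzyme of serine synthesis, had 36.7 and 40.7 CPM against 9.44 and 10.5 CPM.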
